A study of Sus scrofa with 6 samples.

Results

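Toll-like receptors are the innate immune sensors that let macrophages, dendritic cells and some vessel wall cells respond to microbial products and to molecules released by damaged tissue. Those at the cell surface bind lipids and proteins, with TLR4 recognizing bacterial lipopolysaccharide and TLR2 recognizing lipoproteins as a pair with TLR1 or TLR6, whereas those in endosomes bind nucleic acids. CD14 hands lipopolysaccharide to LY96 (also called MD-2), which sits on TLR4, and MYD88 is the adaptor through which every one of these receptors except TLR3 signals to NF-κB. In atherosclerosis, TLR2 and TLR4 are known mainly from the macrophages of lesions.

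The 10 genes on the list were TLR1, TLR2 and TLR4 (surface receptors), TLR3, TLR7, TLR8 and TLR9 (endosomal receptors), CD14 and LY96 (co-receptors), and MYD88, out of 30477 genes with deposited values. A row was found by gene name for 8 of them, and TLR9 was found through its gene ID, so that 9 genes could be described. TLR7 had no row that could be assigned. The gene ID that the name table pairs with TLR7 carries the name and description of PRPS2 in the values, and in RefSeq's Sscrofa11.1 annotation TLR7 lies within the span of TLR8 on chromosome X and its name is listed as a synonym of TLR8. How reads of TLR7 were assigned is therefore not shown by the values, and the TLR8 row is read with that limit.

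Abdominal aorta was compared between 3 libraries from male Wuzhishan miniature pigs on a normal chow diet (NC) and 3 from pigs on a diet high in fat, cholesterol and fructose (HFCF), both fed for 6 months. The HFCF diet was the chow with added shortening, egg yolk powder, cholesterol and fructose. The labels give an age of 3 to 4 months and the methods give an older age at purchase. The labels do not state in so many words that each library is a different pig, so p-values measure the spread between these libraries. Values are FPKM (fragment counts scaled for exon length and for the mapped fragments of the library), which are per length and so can be compared between genes, and tests were run with limma on log2(FPKM + 0.1) over 15384 genes, with Benjamini-Hochberg adjustment.

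The libraries carried the smooth muscle and endothelial markers of an artery wall. The read depth is unknown, but steps between low values gave relative depths of 1 to 1.37 in the NC libraries and 1.03 to 1.06 in the HFCF libraries. HFCF 1 stood apart. Across genes it correlated with the other HFCF libraries at 0.927 to 0.931, against 0.955 between HFCF 2 and HFCF 3. Values without it are given below where the call or direction of a named gene changed, and for some other genes. The size of fold changes given only with all libraries can also depend on HFCF 1. Over all tested genes, the median difference was 0.32 on the log2 scale, toward higher values in HFCF.

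The transcripts of all 9 measured genes were higher in the HFCF aorta. In none of the 9 did the 3 HFCF values overlap the 3 NC values, and all 9 passed an adjusted p of 0.05 by limma, where 22.8% of tested genes were called higher, 6.16% lower and 28.9% in either direction. Groups that did not overlap were found for 48.2% of tested genes, and for 36.1% with HFCF higher. Testing required a mean of 0.1 FPKM over the 6 libraries, and TLR8, with an NC mean of 0.0385, met it only through HFCF. The median of the 9 genes was 2.93 on the log2 scale, 2.61 more than that of the tested genes as a whole. By the thresholds of the study (a ratio of group means above 2 and an unadjusted p under 0.05), 8 of the 9 were higher against 20.7% of tested genes (4.82% were lower), and MYD88 missed the ratio. In bulk tissue, more cells of a type and more RNA per cell cannot be told apart.

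**Figure D1:**
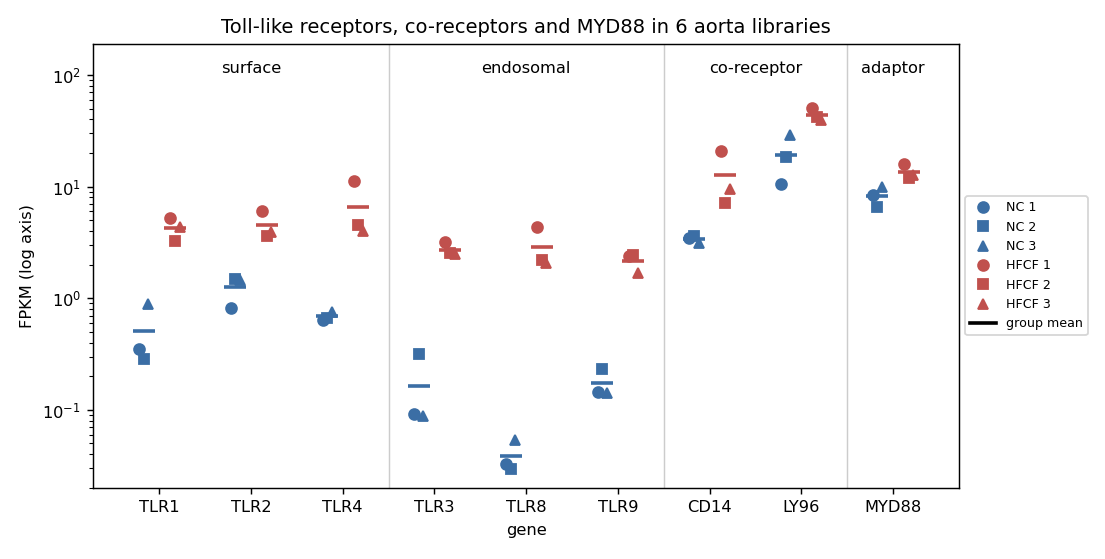
FPKM of the 9 measured genes in each library, on a log axis, with 1 point per library for NC and HFCF and a bar at each group mean. In every gene the lowest HFCF point lies above the highest NC point, with the narrowest separation in LY96, MYD88, CD14 and TLR2 and the widest in TLR8.

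The surface receptors TLR4 and TLR1 rose by similar amounts. The FPKM of TLR4 was 0.636, 0.670 and 0.754 in the NC libraries and 11.2, 4.55 and 3.97 in the HFCF libraries. The NC values were close together and low, whereas HFCF 1 was 2.62 times the mean of the other HFCF libraries. The ratio of group means was 9.55 (6.20 without HFCF 1), and the log2 fold change was 2.93 ± 0.40 (SE, n = 3 per group, adjusted p = 0.00338 by limma). Without HFCF 1 the log2 fold change was 2.47, with an adjusted p of 0.00375.

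TLR1, which forms the receptor for triacylated lipoproteins together with TLR2, was listed at 0.351, 0.285 and 0.879 FPKM in the NC libraries and at 5.20, 3.24 and 4.34 in the HFCF libraries. NC 3 was the highest of the chow libraries and still lay well below every HFCF library. The log2 fold change was 2.95 ± 0.40 (adjusted p = 0.00344 by limma), from a mean of 0.505 ± 0.325 to 4.26 ± 0.982 FPKM (SD, n = 3). It was 1.81 with 1 in place of 0.1 added to FPKM, and the ratio of means, 8.44, was 13.4 without NC 3. TLR1, TLR6 and TLR10 are close paralogs, so reads shared between them may have been split by the counting.

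TLR2 changed least of the surface receptors. Its FPKM was 0.822, 1.5 and 1.45 in NC and 6.11, 3.61 and 3.93 in HFCF, so that it started higher than the other Toll-like receptors and ended near TLR1. The ratio of means was 3.62 and the log2 fold change 1.78 ± 0.32 (adjusted p = 0.00814 by limma), or 1.55 without HFCF 1 (adjusted p = 0.0249). Within a library, the ratio of TLR1 to TLR2 was 0.190 to 0.606 in NC and 0.852 to 1.10 in HFCF, ranges that do not overlap. The partners of the TLR1 and TLR2 pair were thus at more nearly equal transcript levels in the HFCF aorta.

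The endosomal receptors were close to the floor of the measurement in the chow aorta. TLR8, a sensor of single-stranded RNA, was listed at 0.0325, 0.0298 and 0.0533 FPKM in NC and at 4.35, 2.19 and 2.09 in HFCF. Its log2 fold change of 4.35 ± 0.37 (adjusted p = 0.000903 by limma) was the largest of the 9 genes on this scale. TLR8 passed the filter for testing only through its HFCF values, so its call is not separate support. Because the NC values are below the 0.1 added before taking logs, this fold change is set in part by that constant. It was 5.84 with 0.01 added and 1.85 with 1 added, where TLR4 at 2.04 was above it. HFCF 1 was 2.03 times the mean of the other HFCF libraries, and without it the log2 fold change was 4.02.

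TLR3, the sensor of double-stranded RNA, which signals through TICAM1 and not through MYD88, was at 0.0923, 0.314 and 0.0879 FPKM in NC and at 3.17, 2.54 and 2.47 in HFCF. The HFCF values agreed closely, and the spread lay in NC 2, which was the highest chow library. The ratio of means was 16.5, or 30.3 without NC 2, and the log2 fold change 3.51 ± 0.38 (adjusted p = 0.00179 by limma). With 1 added to FPKM the log2 fold change was 1.68, and with 0.01 added it was 4.20.

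TLR9, the sensor of unmethylated CpG DNA, had 0.145, 0.231 and 0.143 FPKM in NC against 2.38, 2.42 and 1.68 in HFCF. HFCF 1 was not the highest library here, unlike in the other 8 genes. The log2 fold change was 3.05 ± 0.30 (adjusted p = 0.00132 by limma), and 2.97 without HFCF 1. It was 1.42 with 1 added to FPKM and 3.58 with 0.01 added.

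The co-receptors and the adaptor were the most abundant of the 9 transcripts in NC. LY96 and MYD88 had the smallest fold changes, and that of CD14 was within error of that of TLR2. CD14, a marker of monocytes and macrophages as well as a co-receptor, was at 3.45, 3.59 and 3.14 FPKM in NC and at 21.1, 7.14 and 9.60 in HFCF. HFCF 1 was 2.52 times the mean of the other HFCF libraries, and the NC libraries lay within a narrow range. The log2 fold change was 1.71 ± 0.38 (adjusted p = 0.0167 by limma) and fell to 1.27 without HFCF 1, still called (adjusted p = 0.0129). The call was lost without NC 1 (adjusted p = 0.0618) and without NC 3 (adjusted p = 0.0503), while the fold change was then 1.72 and 1.66.

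LY96 had 10.6, 18.6 and 28.9 FPKM in NC and 50.6, 41.7 and 39.8 in HFCF, which was the highest level of the 9 genes in either diet. The chow libraries were widely spread, with NC 3 at 28.9 against 39.8 in the lowest HFCF library. The ratio of means was 2.27 and the log2 fold change 1.29 ± 0.34 (adjusted p = 0.0307 by limma). This call did not hold in all fits. The adjusted p rose to 0.0565 without NC 1, 0.0787 without NC 2, 0.0886 without HFCF 1, 0.0726 without HFCF 2 and 0.0604 without HFCF 3.

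MYD88 changed least, from 8.44, 6.62 and 9.86 FPKM in NC to 15.9, 12.02 and 12.8 in HFCF. The groups did not overlap, but the ratio of means was only 1.63 and the log2 fold change 0.71 ± 0.20 (adjusted p = 0.0373 by limma). The adjusted p was above 0.05 without NC 1 (0.0956), NC 2 (0.102), HFCF 1 (0.0890), HFCF 2 (0.0646) or HFCF 3 (0.0711), and the log2 fold change was 0.36 after median-ratio scaling of the libraries. The increase of MYD88 exceeds the median over tested genes by 0.39 on the log2 scale.

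**Figure D2:**
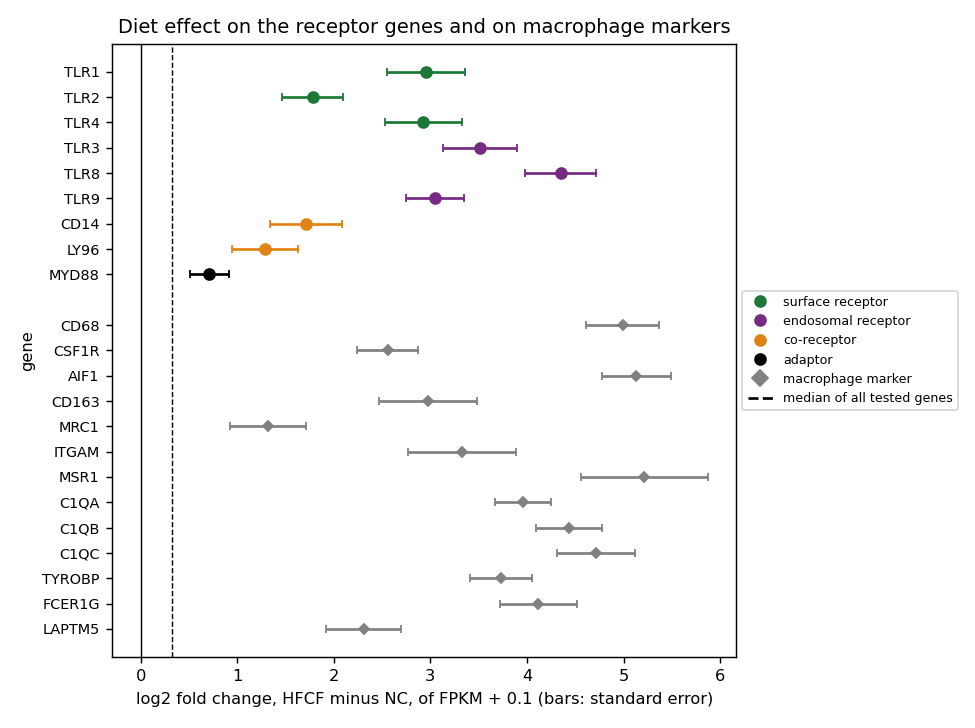
Log2 fold change of FPKM + 0.1, HFCF minus NC, for each of the 9 genes and of 13 macrophage markers. Bars are the standard error from limma, and the dashed line is the median of all tested genes. Of the 9 genes, TLR8 at 4.35 lies highest and MYD88 at 0.71 lowest, and all 9 lie to the right of the dashed line at 0.32. The macrophage markers run from 1.31 for MRC1 to 5.22 for MSR1, which lies beyond TLR8.

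The order of the levels also differed between the diets. In the NC aorta, LY96 was highest, followed by MYD88, CD14, TLR2, TLR4, TLR1, TLR9, TLR3 and TLR8 by mean FPKM, and the ranges of neighbors overlapped only between TLR4 and TLR1 and between TLR9 and TLR3. In the HFCF aorta, LY96 was again highest and TLR9 was lowest by mean FPKM. There the ranges of neighbors overlapped all the way from MYD88 through CD14, TLR4, TLR2, TLR1 and TLR8 to TLR3. The range of TLR9, 1.68 to 2.42, did not overlap that of TLR3 but did overlap that of TLR8, 2.09 to 4.35. Between the highest and the lowest of the 6 receptors, mean FPKM went from 1.26 for TLR2 and 0.0385 for TLR8 in NC to 6.56 for TLR4 and 2.16 for TLR9 in HFCF.

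The surface and endosomal receptors were contrasted within each library. A factor common to the library cancels in the share of summed FPKM, but on the log2 scale it does so only apart from the added constant. The endosomal receptors TLR3, TLR8 and TLR9 made up 13.0%, 19.0% and 8.43% of the summed FPKM of the 6 receptors in NC and 30.6%, 38.5% and 33.7% in HFCF. The share was therefore higher in every HFCF library than in any NC library, with means of 13.5% ± 5.28 and 34.3% ± 4.00 (SD, n = 3). In absolute terms the surface receptors summed to 1.81 to 3.08 FPKM in NC and 11.4 to 22.5 in HFCF, and the endosomal receptors to 0.270 to 0.574 and 6.23 to 9.90. Both classes rose, and surface receptors were the larger part in all 6 libraries. The sums and shares cover these 6 receptors only, without TLR5, TLR6, TLR10 and TLR7. Whether the TLR8 row holds reads of TLR7 is not known.

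On the log2 scale, the mean of the surface receptors minus that of the endosomal receptors was 1.87, 1.58 and 2.51 in NC and 1.12, 0.64 and 0.96 in HFCF. The difference between the diets was -1.08, and it stayed between -1.29 and -0.82 when any 1 library was left out. It was 0.06 when 1 was added to FPKM in place of 0.1, so its direction on this scale rests on values below 1 FPKM. The share of summed FPKM uses no added constant. Of the 9 pairs of a surface and an endosomal receptor, the log2 ratio within a library was lower in HFCF in 9. It did not overlap between the diets in 5. The 9 pairs share 6 genes and are not separate observations. The log2 fold changes were 1.78 to 2.95 for surface and 3.05 to 4.35 for endosomal receptors, so all 9 had to be lower. How often ratios of other genes do not overlap was not computed. With 1 added to FPKM, 4 of the 9 pairs were lower, the 3 of TLR2 and that of TLR1 with TLR8. Without NC 3, 6 pairs were lower, and without HFCF 2, 7 were.

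Those 5 pairs were TLR2 with TLR3, TLR8 and TLR9, and TLR8 with TLR1 and TLR4. For each of them the exact two-sided permutation p was 0.1, the smallest that 3 libraries against 3 allow, and 0.18 after adjustment over the 9 pairs, so none could pass 0.05. The largest difference was that of TLR2 to TLR8, from 3.25 ± 0.42 to 0.69 ± 0.20 on the log2 scale (SD, n = 3), a difference of -2.57. The log2 ratio of TLR1 to TLR9 differed by -0.09 (exact permutation p = 1) and that of TLR4 to TLR9 by -0.12 (exact permutation p = 0.8), both with overlapping groups. With 1 added to FPKM, the difference of TLR2 to TLR8 was -0.57, that of TLR1 to TLR8 was -0.04 and that of TLR4 to TLR8 turned to 0.19, so that the pairs of TLR8 rest on its values near 0 in NC.

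**Figure D3:**
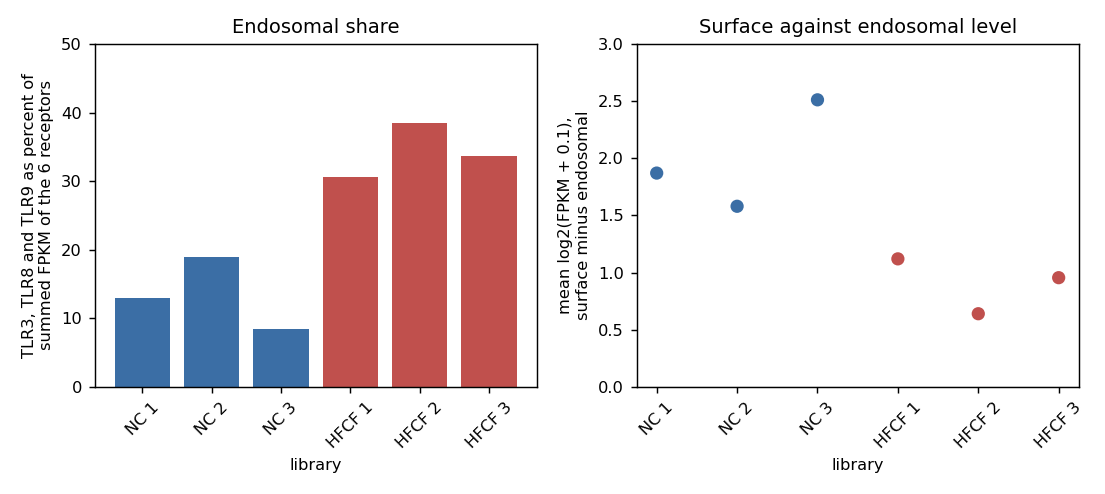
Left, the percent of the summed FPKM of the 6 receptors that came from TLR3, TLR8 and TLR9, with 1 bar per library. NC lies between 8.43% and 19.0% and HFCF between 30.6% and 38.5%. Right, the mean log2(FPKM + 0.1) of the surface receptors minus that of the endosomal receptors, with 1 point per library. NC lies between 1.58 and 2.51 and HFCF between 0.64 and 1.12.

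The parts of the lipopolysaccharide receptor also moved by different amounts. TLR4 was 0.0261 to 0.0600 of LY96 in the NC libraries and 0.0998 to 0.221 of it in the HFCF libraries. It was 0.184 to 0.240 of CD14 in NC and 0.414 to 0.636 in HFCF, and 0.0753 to 0.101 of MYD88 in NC and 0.310 to 0.704 in HFCF. In all 3 ratios TLR4 was higher against its partner in every HFCF library than in any NC library, although the partner was more abundant than TLR4 in all 6 libraries. The ratio of CD14 to LY96 overlapped between the diets, at 0.109 to 0.325 and 0.171 to 0.417.

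Macrophage markers moved with these genes. All 13 markers on the list, among them CD68, CSF1R and C1QA, were higher in HFCF, with log2 fold changes of 1.31 to 5.22 and a median of 3.96, and their summed FPKM was 108.9 to 118.4 in NC and 1065 to 2731 in HFCF. None of the 13 was at 0 in any library. Their part in the rise of the receptors was not tested. Levels were also taken relative to the mean log2 level of the 13 markers in the same library. On this measure TLR2 was lower in HFCF by a difference of -1.97, CD14 by -2.04 and LY96 by -2.46. MYD88 was lower by -3.04 and TLR4 by -0.82, with no overlap between the diets in any of these genes. A gene that rose less than the markers is lower on this measure, and the median over all tested genes was only 0.32. All 9 genes rose by more than 0.32, so none fell as far as a gene at that median would. How often other genes are lower without overlap was not computed, so these values do not show a deficit specific to these genes. TLR1 (-0.80), TLR3 (-0.24) and TLR9 (-0.71) overlapped between the diets on this measure. TLR8 was higher by 0.60 with no overlap, a direction that turned to -1.44 when 1 was added to FPKM, and that of TLR3 turned to 0.17 without NC 2 and 0.07 without HFCF 1.

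Markers of other cells moved less evenly. Of the 15384 tested genes, 22.8% were called higher and 6.16% lower, and 6513 had an unadjusted p under 0.05 by limma. Among neutrophil markers, 1 of the 3 tested was called higher, CSF3R, which was at 0.166 to 0.380 FPKM in NC and at 55.9, 8.38 and 4.55 in HFCF, and the summed list was 1.05 to 1.59 in NC and 5.77 to 61.9 in HFCF. MPO, which defines neutrophil granules, was listed at 0 in all libraries except HFCF 1. Of the dendritic cell markers 1 of 5 was higher, BATF3 with a log2 fold change of 3.08, and the list summed to 2.77 to 4.45 FPKM in NC and 4.79 to 5.68 in HFCF. T cell markers were called in 1 of 6 (4 of 6 at an unadjusted p under 0.05) and B cell markers in 1 of 5 tested (3 of 5 unadjusted), and their lists summed to 0.971 to 1.44 and 6.04 to 10.3 FPKM in NC and to 3.62 to 15.9 and 34.8 to 45.9 in HFCF. Most of the B cell sum was CD79A, at 5.64 to 9.87 FPKM in NC and 34.1 to 38.0 in HFCF. The B cell markers MS4A1 and PAX5 were listed at 0 except in HFCF 1. Endothelial markers were called in 0 of 6 by limma, with 2 of 6 at an unadjusted p under 0.05, fibroblast markers were higher in 1 of 6, and smooth muscle markers were lower in 4 of 6, from a sum of 15145 to 21336 FPKM to 7660 to 12401. The shares called higher among dendritic cell, T cell, B cell and fibroblast markers, 16.7% to 20%, were 1 gene each. They were near the 22.8% of all tested genes. The median log2 fold change was 1.84 for T cell and 2.14 for B cell markers. It was 0.68 for dendritic cell and 0.05 for fibroblast markers, against 0.32 over all tested genes. The part of the other cell types in the receptor values was not tested.

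HFCF 1 was higher than the other HFCF libraries in most leukocyte markers, by 0.596 to 4.13 times over the 13 macrophage markers with a median of 2.498, and by 8.64 times for CSF3R. It was not the highest in MRC1, at 1.41 FPKM against 3.44 in HFCF 3, in the dendritic cell markers FLT3, XCR1, BATF3 and ZBTB46, in ELANE, or in CD3G, which was listed at 0 in HFCF 1. The 9 genes did not all follow it. TLR4, CD14 and TLR8 were 2.62, 2.52 and 2.03 times as high in HFCF 1 as in the mean of the other HFCF libraries, TLR2 was 1.62 times as high, and TLR1, TLR3, TLR9, LY96 and MYD88 were 1.16 to 1.37 times as high. The 6 Toll-like receptors kept an adjusted p under 0.05 without HFCF 1 and in each of the other 14 alternative fits, whereas LY96 and MYD88 did not without HFCF 1.

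The other genes of the pathway were taken from a list of 85 genes ordered by role, of which 82 had a row and 77 were tested. Of the 77, 34 were higher and 2 lower in HFCF, and 41 were not called. The share called higher was 44.2%, against 22.8% of all tested genes, and the share called lower was 2 of 77 against 6.16%. The list was written with earlier results of these data known, so its shares, also those by role below, are a description only. The median log2 fold change of the 77 was 0.87.

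Among the other Toll-like receptors, TLR6, the second partner of TLR2, was at 0.112 to 0.227 FPKM in NC and 1.93, 1.36 and 0.814 in HFCF, with a log2 fold change of 2.41 (adjusted p = 0.00606 by limma). TLR5, the flagellin receptor, was at 1.07 to 1.15 FPKM in NC and at 1.30, 0.901 and 2.01 in HFCF, which overlap, and was not called (0.25 on the log2 scale, -0.03 without HFCF 3, and -0.08 and -0.41 with median-ratio and quantile scaling). It was at about the level of TLR2 in the chow aorta. TLR10 was below the filter, at 0 to 0.0468 FPKM in NC and 0.0481 to 0.219 in HFCF, and was not tested.

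All 3 tested ligand carriers and accessory receptors were higher, against 22.8% of all tested genes. CD180, a TLR4-like receptor without a signaling domain, rose from 0.0773 to 0.129 FPKM in NC to 6.43, 2.23 and 1.86 in HFCF, and its partner LY86 rose from 1.88 to 2.12 to 6.37, 12.03 and 17.1. The partners differed in which library was highest, since LY86 was lowest in HFCF 1. CD180 was tested only through its HFCF values, since its NC mean of 0.0953 FPKM was under the filter of 0.1. CD36, the scavenger receptor that works with TLR2 and its partners, had a log2 fold change of 2.55, but its call was lost without NC 1 (adjusted p = 0.0652), HFCF 1 (0.0634) or HFCF 2 (0.0552).

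Genes that fold, carry and cleave endosomal receptors were higher in 6 of 10, against 22.8% of all tested genes. UNC93B1, which carries nucleic acid receptors from the endoplasmic reticulum to endosomes, was at 4.58 to 6.31 FPKM in NC and 37.0, 20.3 and 20.2 in HFCF, a log2 fold change of 2.21 (adjusted p = 0.00255 by limma). SLC15A3, a lysosomal transporter of bacterial peptides, rose by 2.44 and CTSS, a cathepsin of antigen-presenting cells, rose by 4.60 on the same scale. The more abundant proteases CTSB and LGMN were not called, at 0.81 and 1.34 on the log2 scale (adjusted p = 0.0770 and 0.0697), though both passed without HFCF 3 (0.0279 and 0.0228).

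Of the adaptors other than MYD88, 1 of 5 was higher, a share near the background of 22.8%. PIK3AP1, which links the receptors to phosphoinositide 3-kinase, rose from 0.268 to 0.404 FPKM to 9.71, 5.51 and 3.59, a log2 fold change of 3.81 (adjusted p = 0.00144 by limma). TICAM1, the adaptor of TLR3, was at 5.997 to 6.46 FPKM in NC and 5.26 to 6.41 in HFCF, and its log2 fold change was -0.07 (adjusted p = 0.764). It turned to 0.01 without HFCF 1. SARM1 was not called (0.60, adjusted p = 0.103), but passed without HFCF 3 (adjusted p = 0.0279).

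Of the kinases and ubiquitin ligases, 7 of 18 were higher, against 22.8% of all tested genes. BTK, a tyrosine kinase of B cells and myeloid cells, rose from 0.428 to 0.558 FPKM to 16.0, 8.16 and 6.75, and IRAK2, a kinase recruited by MYD88, from 1.85 to 2.55 to 14.6, 9.11 and 9.93. IKBKE, which phosphorylates interferon regulatory factors, had a log2 fold change of 2.29, but the call was lost without NC 1 (adjusted p = 0.0605), NC 2 (0.0580) or HFCF 1 (0.0540). IKBKB and IKBKG are among the subunits of the IκB kinase complex and were the uncalled genes of this role with the highest mean FPKM. Their log2 fold changes were 0.05 and -0.02. Both changed sign when a library was left out, IKBKB to -0.02 without HFCF 1 (and to between -0.30 and -0.11 under median-ratio, quantile and TPM scaling) and IKBKG to 0.16 without NC 3.

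Transcription factors were higher in 3 of 7, against 22.8% of all tested genes. IRF5, which acts downstream of MYD88, rose by 3.13 on the log2 scale and IRF7, the factor of type I interferon genes, by 2.63. IRF3 was at 19.1 to 26.9 FPKM in NC and 31.6 to 37.7 in HFCF (0.59, adjusted p = 0.0367), a call lost without NC 1, NC 2 or any HFCF library (adjusted p of 0.104, 0.0880, 0.0720, 0.111 and 0.0570). It was also lost with median-ratio (0.24, adjusted p = 0.285), quantile (0.44) and TPM (0.34) scaling, and without a variance trend. JUN and FOS, which form AP-1, were not called, at -0.06 and 0.45, and JUN, whose row is labeled a pseudogene and was matched by gene ID, turned to 0.10 without NC 1 and 0.13 without HFCF 2.

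The inhibitors of the pathway had 1 gene higher and 1 lower of 10, against 22.8% higher and 6.16% lower among all tested genes. SOCS1, a suppressor of cytokine signaling, rose from 0.263 to 0.451 FPKM to 1.29, 1.08 and 0.851 (1.41, adjusted p = 0.0167), with the call lost without NC 2 (0.0559) or HFCF 2 (0.0534). NFKBIA, the inhibitor that holds NF-κB in the cytoplasm and is itself an NF-κB target, was at 141.0, 167.4 and 92.0 FPKM in NC and 60.6, 87.9 and 73.3 in HFCF. Its log2 fold change of -0.83 (adjusted p = 0.0482 by limma) was no longer called without NC 1 (0.148), NC 2 (0.132), HFCF 1 (0.125), HFCF 2 (0.0646) or HFCF 3 (0.1001). TOLLIP and TNIP1 were not called, at 0.43 and -0.28, but TNIP1 was called lower with median-ratio (-0.63, adjusted p = 0.0195) and TPM (-0.54, adjusted p = 0.0277) scaling.

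Cytokines and costimulators downstream of the receptors were higher in 8 of 15 tested, against 22.8% of all tested genes. CCL5, a chemokine of T cells and monocytes, was at 0.994 to 2.82 FPKM in NC and at 84.1, 18.9 and 17.5 in HFCF, CD86, a costimulator, at 0.205 to 0.406 and at 10.1, 3.59 and 2.53, and CXCL10, an interferon-induced chemokine, at 0.913 to 1.84 and at 14.7, 13.3 and 18.6. HFCF 1 was the highest for CCL5 and CD86 but not for CXCL10. IL6 was at 6.43, 9.03 and 6.51 in NC and 9.18, 2.74 and 4.88 in HFCF (-0.53, adjusted p = 0.371), and PTGS2, the inducible cyclooxygenase, was at 0.87 (adjusted p = 0.563) and turned to -0.39 without NC 1. In both genes the diets overlapped.

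Of the endogenous ligands reported for TLR2 or TLR4, 4 of 7 were higher and 1 was lower, against 22.8% and 6.16% of all tested genes. VCAN, the proteoglycan versican, rose from 1.81 to 2.53 FPKM to 12.7, 10.7 and 7.23, a log2 fold change of 2.21, whereas TNC, the matrix protein tenascin C, was lower, at 237.5, 156.9 and 236.1 in NC and 50.8, 99.1 and 64.7 in HFCF (-1.58, adjusted p = 0.00836 by limma). BGN, the proteoglycan biglycan, was by far the most abundant of the list, at 1720 to 2160 FPKM in NC and 1140 to 2233 in HFCF, and was not called (-0.23, and 0.03 without HFCF 1). S100A9, a myeloid alarmin, was listed at 0 in all NC libraries and at 15.5, 0.384 and 0.554 in HFCF (adjusted p = 0.0460 by limma). That call was lost without NC 1 (0.129), NC 2 (0.112), NC 3 (0.105) or HFCF 3 (0.0521), and in 11 of 15 alternative fits in all, including 1 added to FPKM (adjusted p = 0.193). S100A9 and its partner S100A8 passed the filter for testing only through their HFCF values. S100A8 was listed at 11.2 and 0.219 in HFCF 1 and HFCF 2. It was at 0 in the other 4 libraries and was not called.

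**Figure D4:**
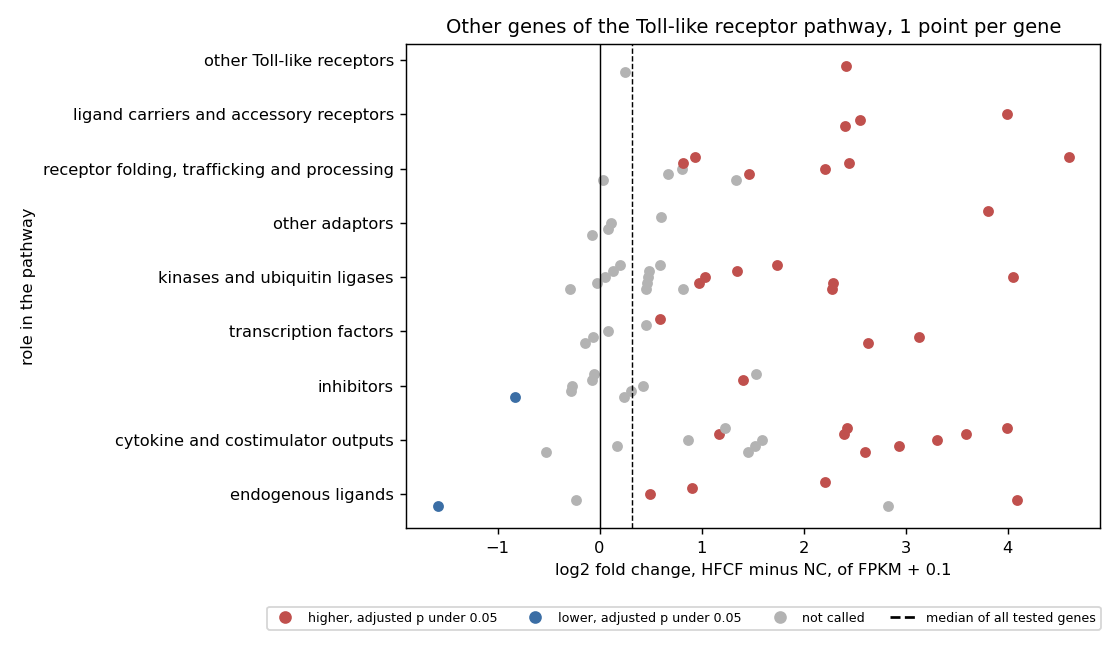
Log2 fold change of FPKM + 0.1, HFCF minus NC, of the 77 tested genes of the pathway, with 1 point per gene grouped by role and the median of all tested genes at the dashed line (0.32). The 34 genes called higher are found in every role, and the 2 called lower, NFKBIA and TNC, are an inhibitor and an endogenous ligand.

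The genes with the pattern most like that of a receptor were sought among 9582 genes with a mean of at least 1 FPKM, by Pearson correlation over the 6 libraries. These libraries fall into the 2 diets and share their depth between genes, so r describes likeness only and has no p. For TLR4 the closest included SASH3, ADAP2, CD180 and CISD2, each at r of 0.999. For TLR2 they were TNFAIP8L2, RPAP2, RWDD4, TAF5 and C3orf38, at 0.998 to 0.999, and for TLR3 they were MCUB, NUDT21, TRAF3IP3, ZNF248 and USP16, at 0.997 to 0.999. Among the 9 genes themselves, r ranged from 0.770 for CD14 with LY96 to 0.990 for TLR3 with TLR9, and TLR8 with TLR4 reached 0.988.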

How the data were processed

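Total RNA of the abdominal aorta was made into libraries with an mRNA kit and sequenced as paired-end reads. Per the labels, cutadapt 1.9, FastQC and HISAT2 were used, and the methods name StringTie. The authors deposited FPKM values, which were used as deposited. Coordinates are not given, because the pig genome build named in the methods is older than the annotation used here. A value of 0.0001 was read as 0. Depth is unknown, and precision was taken from the spread of 3 libraries per group.

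Values were tested as log2(FPKM + 0.1) for the 15384 genes whose mean FPKM was 0.1 or more, using limma 3.58.1 in R 4.3.3 with a single factor, diet, a variance trend in eBayes, and p-values adjusted by Benjamini-Hochberg across those genes. On simulated data with 15384 genes, 157 of 200 genes with a log2 change of 2 were recovered with 6 false calls. The changed genes were drawn from genes more abundant in NC than the 6 receptors, so recovery at the levels of these receptors was not measured. Ratios between receptors were tested by exact two-sided permutation over the 6 libraries. There were 9 pairs, because TLR7 had no row.

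The genes and lists were chosen with earlier results of these data known. In each pathway role, the text names up to 3 called genes with the largest change and up to 2 uncalled genes with the highest mean FPKM, and TLR10 besides. A gene among those most like TLR4 is not reported here. Alternatives were pseudocounts of 1 and 0.01, no filter or a mean of at least 1, median-ratio, quantile and TPM scaling, no trend, a replicate block, each library left out, and the thresholds of the study. Same-numbered libraries did not deviate together (correlations of 0.02, -0.08 and -0.07).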

Additional observations from a re-analysis of the deposited data

How the results depend on the processing

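The 6 Toll-like receptors kept their direction and an adjusted p under 0.05 in 15 of 15 alternative fits, and the number of the 9 genes called ranged from 6 (without NC 1) to 9. Of the pathway genes, 25 to 34 were called higher. Pathway genes called lower numbered 1 with a pseudocount of 1, with no filter, with no variance trend and with the replicate block, 4 with median-ratio and 3 with quantile or TPM scaling, and 1 to 2 without 1 library. Over all genes, 3505 higher and 948 lower became 2032 and 1968 with median-ratio scaling, 1766 and 1759 with quantile normalization and 2229 and 1527 with TPM, where the median log2 fold change of all genes went from 0.32 to -0.00, -0.06 and 0.09, and 1961 to 2800 and 438 to 784 without 1 library (lowest without NC 1).

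The log2 fold change of LY96 was no longer called at 1.29 with no filter (adjusted p = 0.0504), at 0.93 with median-ratio scaling and at 1.03 with TPM, and ranged from 0.92 to 1.63 without 1 library. MYD88 was no longer called at 0.71 with no filter or no trend, at 0.36 with median-ratio, 0.47 with quantile and 0.45 with TPM scaling, and ranged from 0.56 to 0.84 without 1 library. CD14 ranged from 1.27 to 2.04 without 1 library. The replicate block, whose numbers are shared only as labels, left 7 of the 9 genes called, with LY96 at 1.29 (adjusted p = 0.0629) and MYD88 at 0.71 (adjusted p = 0.0630) not called, and called 25 pathway genes higher and 2232 higher and 540 lower over all genes. The surface minus endosomal difference was -1.08, and 0.062 with a pseudocount of 1, -1.83 with 0.01, -1.61 with TPM and -1.29 to -0.82 without 1 library. Of the 9 pairs, 4 were lower in HFCF with a pseudocount of 1, 9 with 0.01 and with each scaling, and 6 to 9 without 1 library, alternatives that were chosen after seeing the data.

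Direction reversed for TLR5 at -0.078 (median-ratio) and -0.41 (quantile), for IKBKB at -0.30 (median-ratio), -0.11 (quantile) and -0.21 (TPM), and for the macrophage-relative difference of TLR3 at 0.35 (pseudocount 0.01) and 0.20 (TPM) and of TLR8 at -1.44 (pseudocount 1). Without 1 library the ranges that crossed 0 were -0.027 to 0.51 for TLR5, -0.021 to 0.18 for IKBKB, -0.19 to 0.16 for IKBKG, -0.13 to 0.012 for TICAM1, -0.23 to 0.13 for JUN, -0.39 to 1.78 for PTGS2, -0.45 to 0.033 for BGN and -0.52 to 0.17 for the macrophage-relative TLR3. The cause of these changes was not tested. With 3 libraries per diet and unknown depth, values near 0 FPKM limit the folds of the endosomal receptors.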
